A study of Mus musculus with 6 samples.

Results

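The genes described here encode the proteins with which a nerve terminal stores neurotransmitter in vesicles and releases it. They are 48 genes listed by name, not cut from the table by a threshold, out of 24480 genes and unmatched rows in the count table, and each of the 48 had at least 1 row there. RNA of the cortex was sequenced in 6 libraries. Of these, 3 came from mice given short-chain fatty acids (SCFA), the acids that gut bacteria produce from fibre. The other 3 came from mice given a control matched for salt. The mice of all 6 libraries were male, of the strain C57BL/6J per the protocol text, 15 weeks old and 14 days past a stroke. The drinking water of both groups had held Vancomycin, Ampicillin, Neomycin and Metronidazol, with sucrose at 5%. SCFA or the control salts were in the water over 4 weeks, and the mice were 6 to 8 weeks old when this began. The labels give neither the way the stroke was made nor the hemisphere taken, and they name no sham-operated group, so the comparison is of SCFA with control after stroke. They do not say that each library is 1 animal, though the design text counts 3 against 3. P-values set the difference between the groups against the spread between libraries of the same group, over these 6 libraries only.

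At a synapse, a vesicle is filled by a transporter and clustered with others by synapsins. It is held near the membrane by Rab3, brought to the release site by the scaffolds of the active zone, and primed. Fusion is driven by SNARE proteins, which zip a SNARE of the vesicle together with SNAREs of the target membrane. Complexins hold the assembled complex ready, and synaptotagmins sense the calcium that enters with an action potential. The vesicle membrane is then retrieved with clathrin and its adaptors. In the cortex most release is of glutamate, loaded mainly by the transporter that Slc17a7 encodes.

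None of the 48 genes was called different between SCFA and control. Of them 40 had enough counts to be tested, and 0 of 40 passed, where 0.0836% of all 11960 tested genes passed in either direction (0.00836% higher and 0.0753% lower; edgeR's quasi-likelihood test at a Benjamini-Hochberg adjusted p below 0.05). DESeq2 and limma-voom also called 0 of them. At an unadjusted p under 0.05, DESeq2 had 5 of the 46 vesicle genes with any count (5.1% of all genes it tested) and limma-voom 4 of 40 (6.72%). The log2 fold changes of the 40, always SCFA minus control, ran from -0.74 to 1.18 with a median of 0.06, beside a median of 0.01 over all tested genes. There were 23 above 0 and 17 below, and 34 and 6 when libraries were scaled by their total counts. At an unadjusted p under 0.05 there were 3 of the 40, against 5.76% of all tested genes: the active-zone scaffold gene Bsn and the calcium-sensor gene Doc2b were higher and the vesicle protein gene Sv2b was lower in SCFA libraries. The adjusted p of the 40 lay between 0.862 and 0.99. Their standard errors ran from 0.128 to 0.759 with a median of 0.182. For 15 of the 40 the whole 95% interval of the difference lay within 0.5 of 0 on the log2 scale, and for 32 within 1. Those 15 were Snap25, Snap47, Syn2, Syt4, Syt11, Syt13, Stx6, Stx7, Stx12, Stxbp5, Sv2a, Cplx1, Cplx2, Rab3c and Unc13a. The 8 with an interval reaching 1 were Syn1, Syt1, Syt7, Syt17, Sv2b, Sv2c, Doc2b and Rph3a.

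**Figure D1:**
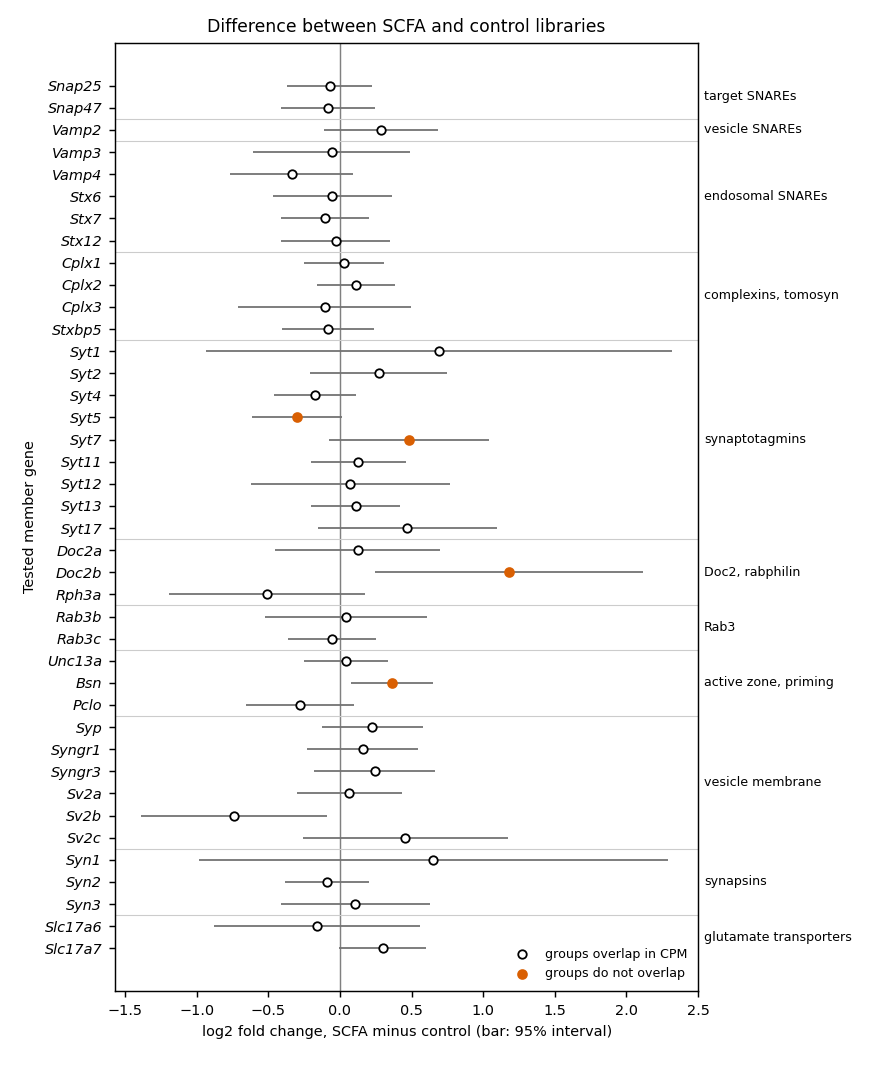
Log2 fold change between SCFA and control libraries (horizontal axis) for the 40 tested genes, grouped by role, with bars for the 95% interval from the edgeR fit. Filled points are the 4 genes whose groups did not overlap in CPM, and the intervals of Bsn, Doc2b and Sv2b are the 3 that leave out 0.

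Total counts per library ran from 9275252 to 13862756, and a single row paired with no gene symbol took 35% to 55.3% of them. The 48 genes together held 66822 to 128005 counts per library. Control 2 stood apart along the first principal component (109.2, the rest -25.7 to -17.6), and 13600 of its rows held counts, fewer than the 15988 to 16941 in the rest. SCFA 2 lay at 51.6 on the second component, and the next highest, SCFA 3, at 9.43. Markers of cortical excitatory neurons, 9 of 10 tested, were present in every library, with a summed level (CPM, counts scaled to library size) of 2068 to 2719 in controls and 2552 to 2978 with SCFA. Markers of striatal neurons, which lie beneath the cortex, summed to 72.9 to 134 CPM in controls, to 71.5 and 81.8 CPM in SCFA 1 and SCFA 3, and to 398 CPM in SCFA 2 (7 of 9 tested, none at 0 in all libraries). The summed level of 9 microglial markers was 273 to 337 CPM in controls and 461 to 667 CPM with SCFA, and that of 8 astrocyte markers 799 to 953 and 1116 to 1595 CPM. Markers of pancreatic acinar cells, 8 of 8 tested, summed to 32.5 to 337 CPM in controls and 0.275 to 1.15 CPM with SCFA, and they were 8 of the 9 genes called lower over all genes. The 1 gene called higher over all genes was the microglial marker Laptm5 (adjusted p = 0.0262, edgeR). Summed markers also did not overlap between groups for oligodendrocyte precursors (24.7 to 27.1 CPM in controls, 31.1 to 56.5 CPM with SCFA), endothelial cells (56.1 to 71.7 and 82 to 121.5 CPM) and hippocampal neurons (43.3 to 46 and 49.9 to 80.6 CPM). Of the tested markers, 5 of 5, 4 of 4 and 3 of 5 in turn had log2 fold changes above 0. The endothelial genes Pecam1 and Tek stood at 0 in all libraries. How often sums of other genes do not overlap was not counted. Pan-neuronal markers summed to 2284 to 2550 CPM and 2540 to 2724 CPM. The part of these shifts in the values of the vesicle genes was not tested. In tissue RNA, fewer neurons and less RNA per neuron cannot be told apart.

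How many transcript rows a gene had in the table went with whether it could be measured at all. The values are read counts per RefSeq transcript, added up here over the rows of each symbol. All 30 vesicle genes with 1 row were tested, with 538 to 94864 counts over the 6 libraries and at least 28 in each. Of the 18 with 2 or more rows only 10 were tested, and the totals of all 18 ran from 0 to 18253 with a median of 174. Of the vesicle genes, 0% of those with 1 row and 11.1% of those with more stood at 0 in every library. Among all protein-coding genes these shares were higher, at 17% and 29.3%. The sources used here do not say whether reads shared by several transcripts were discarded in the counting, and a 0 was not read as absence.

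**Figure D2:**
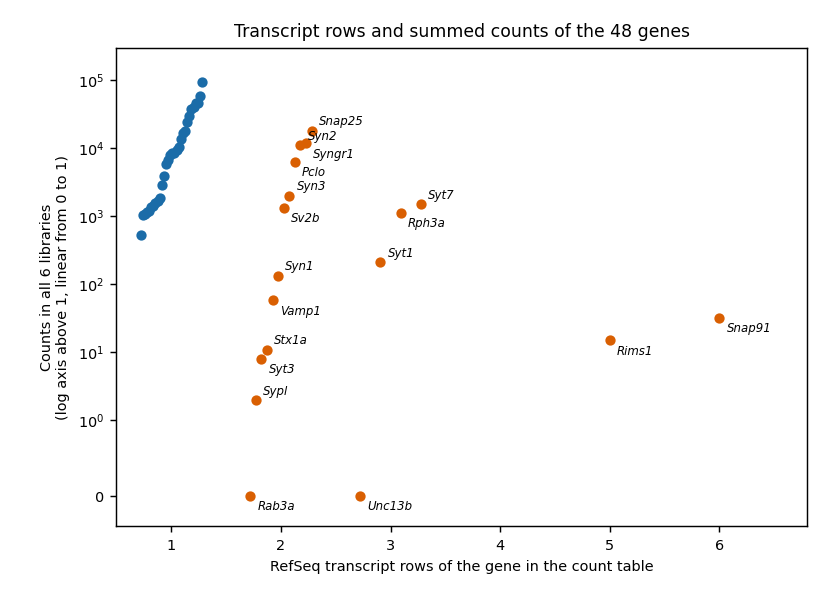
Counts summed over the 6 libraries (vertical axis, logarithmic above 1) against the number of transcript rows of each of the 48 genes (horizontal axis), with genes of the same row number spread sideways by rank. The genes with 1 row all lie at 538 counts or more, while Rab3a and Unc13b, with 2 and 3 rows, lie at 0.

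The 8 untested genes include some that textbooks place at the centre of release. Values by library follow the order of libraries 1 to 3 in each group. Rab3a, the main vesicle-bound GTPase of the brain, had 2 rows, and Unc13b, a priming factor, had 3, all at 0 in the 6 libraries. A count of 0 allows up to 3 counts, or 0.207 to 0.346 CPM depending on the library. This floor covers counting error only. It does not bound expression, since how reads shared by rows were counted is not given. Stx1a, a target-membrane SNARE that pairs with Snap25, had 2 rows, with counts in the noncoding one alone: 9, 0 and 1 in the controls and 1, 0 and 0 with SCFA. Vamp1, a vesicle SNARE, had 2 rows with 2, 9 and 16 counts in controls and 4, 26 and 1 with SCFA. Rims1, which tethers calcium channels and vesicles at the active zone, had 5 rows with 1, 0 and 0 counts in controls and 6, 0 and 8 with SCFA. Snap91, a clathrin adaptor also called AP180, had 6 rows, and its 32 counts, 18 in control 1 and 14 in control 3, likewise stood in 1 noncoding row. Syt3 had 2 rows and 8 counts, all in control 1. Sypl, a relative of synaptophysin found in many tissues, had 2 rows and 2 counts, 1 each in SCFA 2 and SCFA 3. These 8 did not pass the filter on low counts, and the 6 with any count were tested only in some alternatives, where 0 passed. Snap91 was tested in 4 of the fits with 1 library left out, at an adjusted p of 0.401 to 1 (edgeR) and fitted log2 fold changes of -7.11 to -6.39. It passed the filter there only through controls 1 and 3, where it had counts, so neither this p nor the fold change is a result about SCFA. With all SCFA libraries at 0, such a fitted value depends on the prior count and is no bound.

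Snap25 shows what separates rows of 1 gene. It encodes the SNARE that contributes 2 helices to the fusion complex, and it lies on chromosome 2 from 136713439 to 136782428 (GRCm38). Its 2 rows use alternative copies of exon 5, as in the isoforms known as SNAP-25a and SNAP-25b. In the GENCODE models matched to the rows, the exons lie side by side on the plus strand, each 118 bases long, and they differ at 31 positions (73.7% identical). They are shown because reads over them can tell the isoforms apart, with the differing bases in capitals.
Exon 5 of row NM_001291056, chr2:136769743-136769860: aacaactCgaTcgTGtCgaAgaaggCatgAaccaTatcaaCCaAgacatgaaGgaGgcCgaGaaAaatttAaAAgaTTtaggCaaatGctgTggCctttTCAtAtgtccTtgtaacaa
Exon 5 of row NM_011428, chr2:136770057-136770174: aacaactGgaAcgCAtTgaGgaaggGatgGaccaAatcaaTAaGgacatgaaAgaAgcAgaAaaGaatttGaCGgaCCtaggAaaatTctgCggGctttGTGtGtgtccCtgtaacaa

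The row with the downstream exon held 17496 counts and the row with the upstream exon 757. Their shares cannot be read as isoform levels, since the models differ in more than exon 5. Of the 2116 exon bases of the former, 1220 (57.7%) lay in no other row of the gene, against 118 of 1014 (11.6%) in the latter. The share of the former was 95.5%, 95.6% and 94.7% in the controls against 96.3%, 97.6% and 94.8% with SCFA, so the groups overlapped. The same measure was small in some other genes with low counts. Syn1 had 38 such bases in the row that held all of its 135 counts, and Rims1 84 in the row that held all of its 15. Small values also stood in rows with more counts, such as 175 in a row of Sv2b with 1061 counts and 132 in a row of Syt7 with 446. The row with all 58 counts of Vamp1 had 412. Unshared bases did not always bring counts: a row of Unc13b with 1353 of them and a row of Sypl with 3084 held 0 and 2 counts. For Rab3a, Stx1a, Syt1, Syt3 and Snap91, several rows matched the same model and the measure could not be computed. Syt1 had 3 rows, and its 213 counts all stood in 1 of them.

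Levels of the 30 genes with 1 row can be set side by side once divided by exon length (CPM per kilobase, mean ± SD over the 6 libraries). The highest were Vamp2, the main vesicle SNARE of the forebrain, at 303 ± 63.2, Slc17a7 at 290 ± 43.1, Cplx2, a complexin, at 282 ± 22.6, and Syp, which encodes the vesicle protein synaptophysin, at 223 ± 40.3. The first 3 lay within 1 SD of each other. Cplx1 followed at 164 ± 9.97 and Syt11 at 94.4 ± 14.2. The lowest were Slc17a6 at 4.23 ± 1.36, Sv2c at 2.18 ± 0.9 and Doc2b at 1.7 ± 0.969. Within families some of these 1-row genes lay far apart, while others, such as Cplx1 and Cplx2, lay closer. Family members with 2 or more rows, such as Rab3a and Syt1, are not in this comparison. Cplx3 lay at 5.41 ± 0.954, far below Cplx2, and Rab3b at 7.99 ± 1.86, below Rab3c at 65.7 ± 6.92. Slc17a6, the transporter of thalamic and other subcortical glutamate neurons, lay far below Slc17a7.

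**Figure D3:**
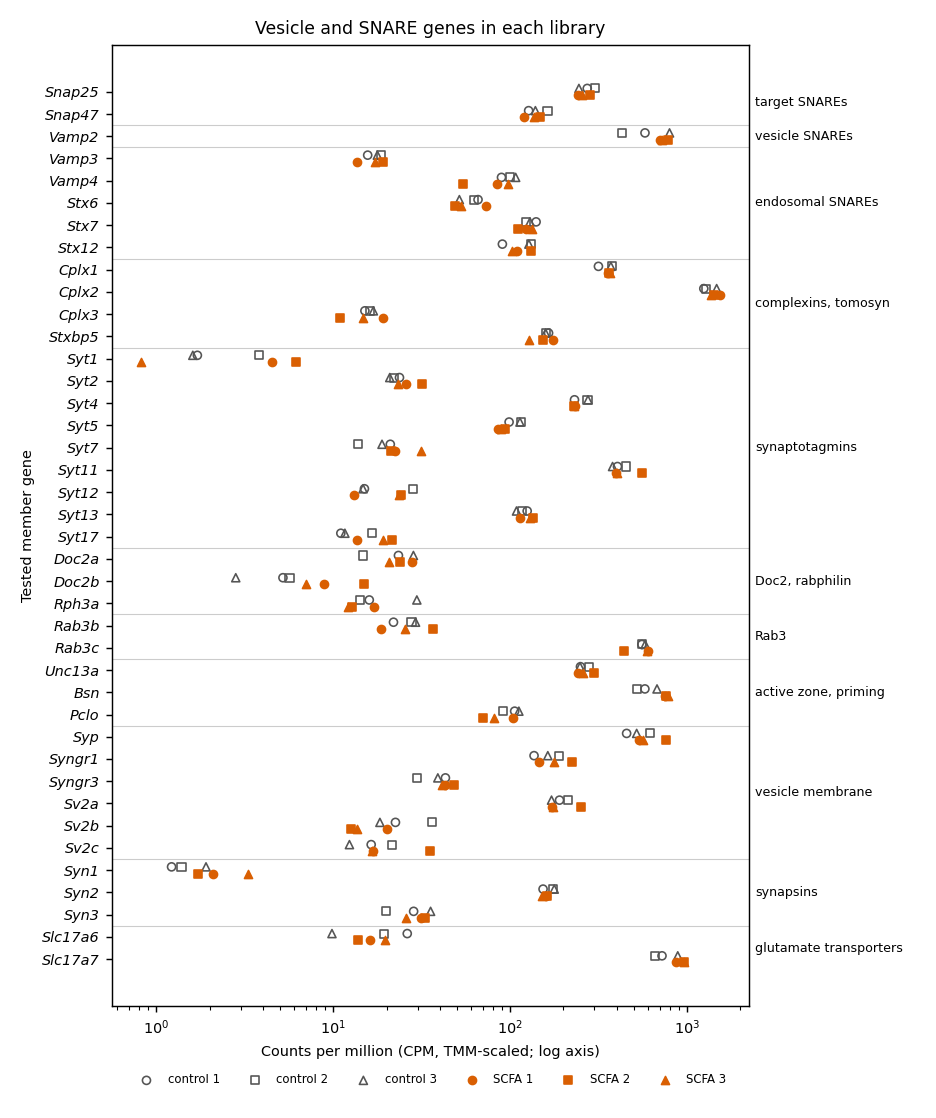
CPM in each library (horizontal axis, logarithmic) for the 40 tested genes, grouped by role, with open grey symbols for controls 1 to 3 and filled orange symbols for SCFA 1 to 3. For most genes the symbols of both groups lie together, and those of Bsn, Syt5, Syt7 and Doc2b separate by group.

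Among the SNAREs of the target membrane, Snap25 measured 273, 301 and 245 CPM in controls 1 to 3 and 241, 284 and 254 CPM in SCFA 1 to 3. The groups overlapped, at a log2 fold change of -0.07 (SE 0.138, 95% interval -0.37 to 0.23). Snap47, a relative of Snap25 found on internal membranes, measured 127, 163 and 139 CPM in controls and 120, 147 and 137 CPM with SCFA. Its log2 fold change was -0.09 (SE 0.152, interval -0.41 to 0.24). Vamp2 measured 579, 431 and 797 CPM in controls and 702, 777 and 725 CPM with SCFA. Control 2 was lowest and control 3 highest, so both extremes were controls. Its log2 fold change of 0.29 (SE 0.185, adjusted p = 0.896, edgeR) became 0.09 without control 2, 0.54 without control 3 and 0.05 without control 2 and SCFA 2 together.

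The SNAREs of endosomes and the Golgi recycle membrane in all cells. Their 5 members, Vamp3, Vamp4, Stx6, Stx7 and Stx12, all had log2 fold changes below 0, with a median of -0.06, and 0 passed. When libraries were scaled by their total counts, 4 of the 5 lay above 0. With any 1 library left out, 1 or 2 of the 5 lay above 0, and with limma-voom 1 did. Vamp4 measured 89.4, 100 and 108 CPM in controls and 84.3, 54.4 and 96.8 CPM with SCFA, with SCFA 2 the lowest library. Its log2 fold change was -0.34 (SE 0.2, interval -0.77 to 0.10), and -0.12 without SCFA 2. Stx7, a syntaxin of late endosomes, measured 140.3, 123.4 and 129.5 CPM and 122.5, 110.7 and 132.7 CPM, at -0.10 (SE 0.144). Stx6, Stx12 and Vamp3 lay between -0.06 and -0.03.

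Complexins and the syntaxin-binding protein tomosyn, which Stxbp5 encodes and which limits release, had log2 fold changes between -0.11 and 0.11. Cplx2 measured 1246, 1282 and 1473 CPM in controls 1 to 3 and 1536, 1422 and 1370 CPM in SCFA 1 to 3. The groups overlapped, at a log2 fold change of 0.11 (SE 0.128, interval -0.16 to 0.39). Stxbp5 measured 165, 159 and 159 CPM in controls and 174, 154 and 128 CPM with SCFA, at -0.08 (SE 0.149). Cplx1 lay at 0.03 (SE 0.13). Cplx3, known from deep cortical and retinal neurons, lay at -0.11 (SE 0.281), at 15.1 to 16.9 CPM in controls and 11 to 19.2 CPM with SCFA.

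Of 10 synaptotagmins 9 were tested, with 7 log2 fold changes above 0, 2 below and 0 called. Syt5, a calcium sensor of vesicles, was 1 of the genes whose groups did not overlap. It measured 98.7, 116 and 114 CPM in controls and 85.5, 93.4 and 88.3 CPM with SCFA, each SCFA library below each control, at -0.30 (SE 0.146, unadjusted p = 0.0628, adjusted p = 0.879, edgeR). Syt7, which sustains slow and repeated release, measured 21, 13.7 and 18.9 CPM in controls and 22.4, 21.2 and 31.2 CPM with SCFA. Each SCFA library lay above each control, though SCFA 2 exceeded control 1 by little, at 0.48 (SE 0.259, adjusted p = 0.889, edgeR). It was 0.29 without SCFA 3.

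The best-known sensor of the family, Syt1, stood at 1.7, 3.81 and 1.61 CPM in controls and 4.5, 6.13 and 0.82 CPM with SCFA. All of its 213 counts stood in 1 of its 3 rows, and how reads shared by rows were counted is not given. These values were therefore not read as the level of the gene. SCFA 2 was the highest library and SCFA 3 the lowest, 7.47 times apart, and the interval of the log2 fold change of 0.69 ran from -0.94 to 2.32. It was 0.17 without SCFA 2, 1.20 without control 2 and 1.17 without SCFA 3. Syt11, which lacks calcium binding and acts in membrane retrieval, measured 405, 451 and 380 CPM and 395, 555 and 402 CPM, with SCFA 2 highest, at 0.13 (SE 0.155). It became -0.04 without SCFA 2. Syt2, the fast sensor of parvalbumin interneurons and hindbrain neurons, lay at 0.27 (SE 0.222), Syt17 at 0.47 (SE 0.289), Syt13 at 0.11, Syt12 at 0.07 and Syt4 at -0.18. In total 3 of the 40 genes were higher and 1 lower with no overlap between groups, where 6.42% and 5.76% of all tested genes were.

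Doc2b, on chromosome 11 from 75768270 to 75796060, had the highest log2 fold change of the 40. It encodes a high-affinity calcium sensor linked to spontaneous release. Its level was low, at 5.19, 5.66 and 2.81 CPM in controls (64, 49 and 28 counts) and 8.9, 15 and 7.01 CPM with SCFA (85, 218 and 94 counts). Every SCFA library lay above every control, and SCFA 2 stood well above the other 5. The log2 fold change was 1.18 (SE 0.435, interval 0.24 to 2.12), with an unadjusted p of 0.0175 and an adjusted p of 0.862 (edgeR). It was 0.81 without SCFA 2, 0.98 without control 2 and SCFA 2, and 1.40 without SCFA 3. The paralog Doc2a measured 23.4, 14.8 and 28.4 CPM in controls and 28.1, 24 and 20.7 CPM with SCFA, with overlap, at 0.12 (SE 0.267). Of its exon bases 43.5% overlap the gene Ino80e on the other strand, which cannot be told apart without a known strand setting. Rph3a, encoding rabphilin, a Rab3 effector, measured 16, 14.1 and 29.7 CPM in controls and 17.1, 12.8 and 12.2 CPM with SCFA. Control 3 alone was high, and the log2 fold change of -0.51 (SE 0.316) became -0.10 without it.

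The 2 measured Rab3 genes did not separate. Rab3c measured 556, 560 and 581 CPM in controls and 601, 441 and 592 CPM with SCFA, where SCFA 2 was lowest, at -0.06 (SE 0.143). Without SCFA 2 it was 0.08. Rab3b measured 21.9, 27.7 and 29.2 CPM in controls and 18.7, 36.6 and 25.5 CPM with SCFA, which held both the highest and the lowest library, at 0.04 (SE 0.262).

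Bsn, on chromosome 9 from 108096022 to 108190419, encodes Bassoon, a giant scaffold of the active zone. It measured 579, 524 and 678 CPM in controls 1 to 3 and 751, 761 and 780 CPM in SCFA 1 to 3. Every SCFA library lay above every control, and the SCFA libraries lay close together (594 ± 77.7 CPM in controls, 764 ± 14.4 CPM with SCFA, SD, n = 3 each). The log2 fold change was 0.36 (SE 0.133, interval 0.08 to 0.65), with an unadjusted p of 0.0167 and an adjusted p of 0.862 (edgeR). It stayed between 0.28 and 0.47 when any 1 library was left out, and was 0.29 without control 2 and SCFA 2. Pclo, which encodes the related scaffold Piccolo, went the other way in value, with 106, 90.7 and 112 CPM in controls and 104, 70.2 and 81.2 CPM with SCFA. The groups overlapped through SCFA 1, at -0.28 (SE 0.174, adjusted p = 0.892, edgeR), at -0.15 without SCFA 2 and at -0.44 without SCFA 1. The leading of its 2 transcript rows, fitted alone, lay at -0.03. Whether the differences of these 2 genes differ from each other was not tested. Unc13a, which encodes the priming factor Munc13-1, measured 249 to 278 CPM in controls and 243 to 300 CPM with SCFA, at 0.04 (SE 0.137).

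Pclo has 2 rows that differ in the share of its counts. The row with most counts held 54.7%, 51.8% and 60.9% of them in the controls against 63.8%, 74.6% and 63.7% with SCFA. In counts, this row held 715, 407 and 681 in the controls against 633, 760 and 694 with SCFA, and the other row 593, 379 and 437 against 359, 259 and 395. In the GENCODE models the leading row had 1967 bases found in no other row of the gene and the other row 5205. The groups did not overlap in this share. Of 8 vesicle genes with 2 or more rows well enough counted (a total of at least 50 in every library and a mean of at least 10 in the second row), 3 had shares without overlap, and so had 11.5% of all 252 such genes. The others were Syn2, whose leading row held 92.2% on average in controls and 90.4% with SCFA,, and Syt7, at 73.8% and 68.2%. In both the nearest libraries of the groups were less than 1 percentage point apart. These shares are a description with no test.

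**Figure D4:**
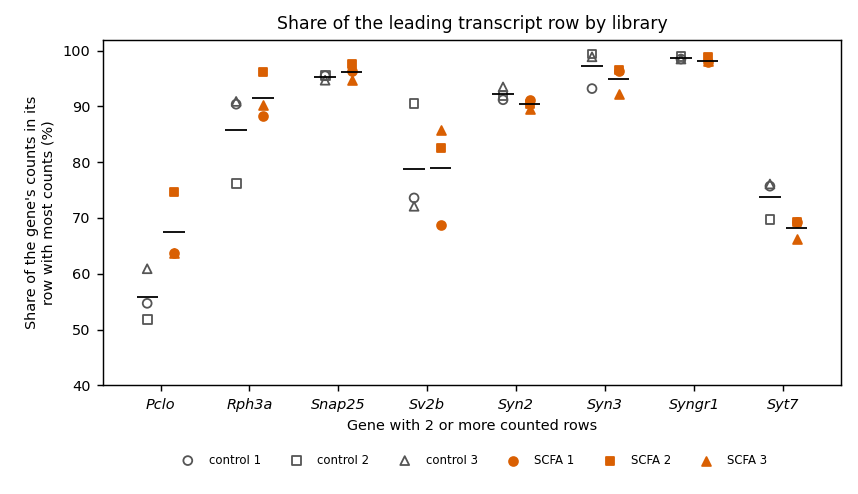
Share of a gene's counts in its row with most counts (vertical axis, percent, from 40) in each library, for the 8 genes with 2 or more counted rows, with open grey symbols for controls, filled orange symbols for SCFA and a line at each group's mean. In Pclo the controls lie between 51.8% and 60.9% and the SCFA libraries between 63.7% and 74.6%.

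Proteins of the vesicle membrane gave 5 log2 fold changes above 0 and 1 below among 6 tested, and 0 passed. Without SCFA 2 they were 3 and 3. Syp, on chromosome X from 7638580 to 7653256, measured 456, 619 and 520 CPM in controls and 539, 759 and 568 CPM with SCFA. SCFA 2 was the highest library, followed by control 2, and the log2 fold change of 0.23 (SE 0.163) became 0.07 without SCFA 2. Of its exon bases 33.8% overlap a gene on the other strand. The 3 SV2 genes encode glycoproteins of the vesicle that bear on its readiness to fuse. Sv2b, on chromosome 7 from 75114894 to 75309262, measured 22.5, 36.4 and 18.4 CPM in controls and 20.1, 12.6 and 13.6 CPM with SCFA. SCFA 1 lay above control 3, so the groups overlapped, and control 2 was far above the others. The log2 fold change of -0.74 (SE 0.3, interval -1.39 to -0.09, unadjusted p = 0.0285, adjusted p = 0.862, edgeR) was -0.41 without control 2, -0.60 without SCFA 2 and -0.28 without both.

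Sv2c, the SV2 form known from the basal ganglia, measured 16.4, 21.6 and 12.3 CPM in controls and 16.9, 35.5 and 16.5 CPM with SCFA. SCFA 2 alone was high, and the log2 fold change of 0.46 (SE 0.331) became 0.00 without it. The striatal markers summed to 398 CPM in that library, and a link between these values was not tested. Sv2a, the widespread form and the target of the drug levetiracetam, lay at 0.07 (SE 0.17), with 171.5 to 213 CPM in controls and 173.5 to 253 CPM with SCFA. Syngr1 and Syngr3, which encode synaptogyrins, lay at 0.16 (SE 0.179) and 0.24 (SE 0.197), both with SCFA 2 as the highest library.

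The synapsins coat vesicles and cluster them. Syn2 measured 154, 174 and 178 CPM in controls and 160, 163 and 152 CPM with SCFA, at -0.09 (SE 0.136, interval -0.38 to 0.21). Syn1, from 12 to 44 counts per library, measured 1.22, 1.39 and 1.91 CPM and 2.09, 1.72 and 3.28 CPM, at 0.65 with an SE of 0.759 and at 0.34 without SCFA 3. All of its counts stood in 1 of its 2 rows, and its low CPM was not read as the level of the gene. Syn3 lay at 0.11 (SE 0.241). Of the glutamate transporters, Slc17a7 measured 723, 664 and 888 CPM in controls and 865, 968 and 962 CPM with SCFA. Only control 3 reached above an SCFA library, and the log2 fold change was 0.30 (SE 0.14, interval -0.00 to 0.60, unadjusted p = 0.0529, adjusted p = 0.869, edgeR). It was 0.18 without control 2 and SCFA 2. Slc17a6 measured 26.2, 19.4 and 9.83 CPM in controls, the highest and lowest library among them, and 16.2, 13.8 and 19.7 CPM with SCFA, at -0.16 (SE 0.333).

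**Figure D5:**
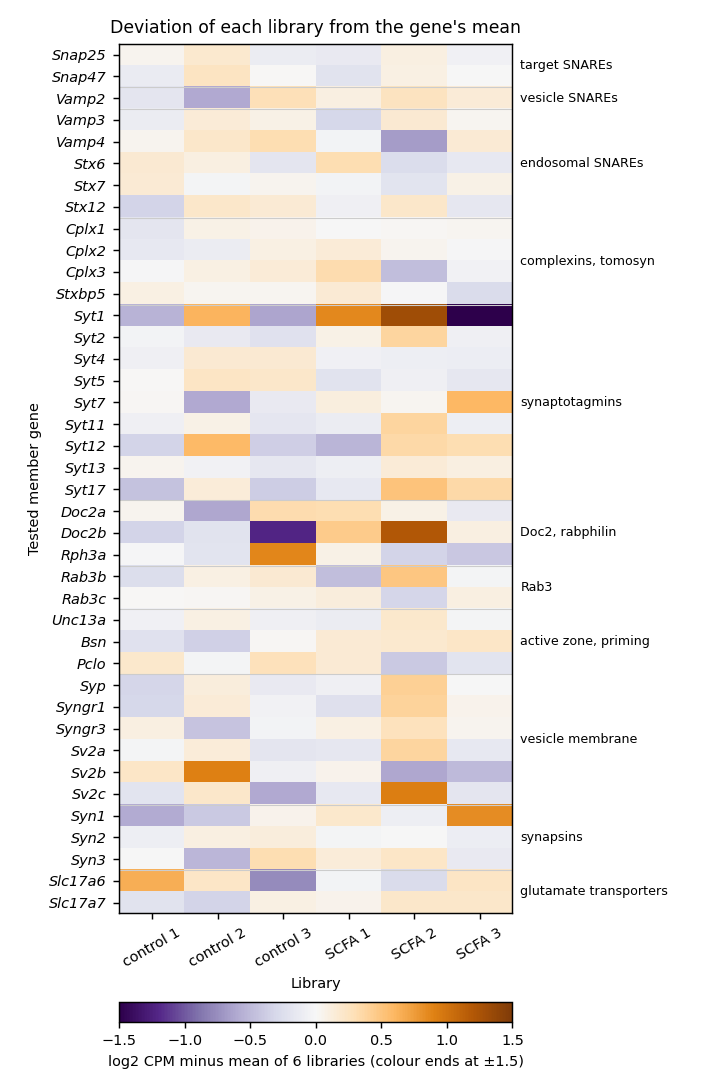
Log2 CPM of each library minus the gene's mean over the 6 libraries, by colour (brown above, violet below the mean), for the 40 tested genes in rows and the libraries in columns. The column of SCFA 2 holds the highest value for 15 of the 40 genes, and the strongest colours sit in Syt1 and Doc2b.

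Single libraries marked many of the genes. SCFA 2 was the highest library for 15 of the 40 (37.5%), among them Syp, Syt11, Sv2a, Sv2c, Syngr1, Doc2b, Rab3b and Slc17a7, where it was the highest for 20.4% of all tested genes. It was the lowest for 7 of the 40 (17.5%, against 18.5% of all). Control 2 was the lowest library for 31.2% of all tested genes and for 7 of the 40 (17.5%). The highest library of a gene was a median of 1.56 times its lowest. Without SCFA 2, 20 of the 40 lay above 0 in place of 23.

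The wider vesicle cycle gave a like picture. Of 113 further genes of release and recycling 81 were tested, 39 above 0 and 42 below with a median of -0.03, and 0 passed. At an unadjusted p under 0.05, 1 of the 81 was higher and 3 were lower, where 5.76% of all tested genes lay under it in either direction. The higher one was Slc32a1, the transporter that loads GABA and glycine into vesicles, with 21.6, 14.9 and 17.3 CPM in controls and 20.9, 41.1 and 27.7 CPM with SCFA (0.74, SE 0.276, adjusted p = 0.862, edgeR). SCFA 2 was highest and SCFA 1 lay below control 1. Markers of inhibitory neurons summed to 306 to 375 CPM in controls and 321 to 404 CPM with SCFA. Those lower included 2 genes of the SNARE machinery. Napb, which encodes beta-SNAP, a partner of the SNARE-splitting ATPase NSF, measured 679, 782 and 718 CPM in controls and 599, 468 and 665 CPM with SCFA. Every SCFA library lay below every control, at -0.33 (SE 0.148, adjusted p = 0.862, edgeR). Vti1b, an endosomal SNARE, lay at -0.37 (SE 0.158), with overlap.

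The third was Dnm3, a dynamin that pinches off membrane, at -0.47 (SE 0.203). The SNARE and SNARE-binding genes had a median of -0.13 over 20 tested, with 8 above 0 and 12 below, among them Snap29 at 0.56 and Stx4a at 0.25. Sensors, priming and tethering factors had 0.02 over 20, among them Syt9 at 0.65, Syt10 at 0.66, Erc1 at -0.94 (SE 0.719) and Ppfia3 at -0.15. Other vesicle proteins had -0.05 over 20. There the zinc transporter gene Slc30a3 lay at 0.26 and the proton pump subunit gene Atp6v1a at -0.14. Endocytosis genes had a median of 0.12 over 21, with Ston2 at 0.32, Ston1 at 0.62 and Cltc, the clathrin heavy chain gene, at -0.20 (SE 0.123). The groups did not overlap for Slc30a3, Atp6v1a, Ston2 and Cltc, whose adjusted p ran from 0.892 to 0.921 (edgeR). Over all tested genes, 6.42% were higher and 5.76% lower without overlap. The genes named here were those of smallest p, and overlap was not counted over all 81.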

How the data were processed

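The authors deposited unnormalized read counts for 34755 RefSeq transcript rows in 6 cortex libraries. The build is mm10 and the tools named are featureCounts and CASAVA 1.8.2, per the submitters' processing notes; the aligner and the strand setting are not given in the sources used. Symbols came from a RefSeq table of GRCm38.p6 (34419 rows), then from GENCODE M21 (197 rows, among them the row of Syt5), and 139 rows stayed unmatched, the largest of which remained in the library sizes. Rows of a symbol were summed.

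Genes were tested with edgeR 4.0.16 (R 4.3.3): filterByExpr (minimum count 10, total 15) kept 11960 genes, with TMM scaling, a two-sided quasi-likelihood F test with no covariate and Benjamini-Hochberg adjustment over all of them. CPM use TMM-scaled library sizes. The SE is the log2 fold change divided by the root of F, and intervals use its degrees of freedom. The fit was tested on simulated data. Floors cover counting error only. Exon lengths, bases shared between rows and exon sequences came from GENCODE M21 models (GRCm38).

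The members and lists were chosen with earlier results of these data known. Given library by library were tested members whose groups did not overlap, whose highest library was at least 4 times the lowest, the 2 of smallest p and the 1 of highest mean in each of 11 role groups, 24 genes in all, and other members by range or difference. In each wider list the 2 genes of smallest p in each direction were named, except 1 that is not reported here. Alternatives were other scalings (DESeq2 size factors, upper quartile, total counts), filters, DESeq2 1.42.0, limma-voom (limma 3.58.1), libraries left out, the replicate number as a block, robust dispersion, structural RNA removed, unsummed rows and a threshold of 0.1. The deviations of libraries with the same number were uncorrelated (-0.00186, 0.0113 and -0.00414), so the numbers were not taken as pairs.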

Additional observations from a re-analysis of the deposited data

How the results depend on the processing

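The count of vesicle genes called was 0 in each of the 19 alternatives. The lowest adjusted p of any of them in any alternative was 0.401 (edgeR, Snap91 without control 2). Snap91 passed the filter there only through the controls, the group where it had counts, so that p is no support for a difference. Among the 24 genes given library by library the lowest was 0.458 (DESeq2, Bsn). At an unadjusted p under 0.05 there were 2 to 6, of 40 to 42 tested, when 1 library was left out, and Snap91 can be among them. The 6 were without SCFA 1, of 42, where 367 of all 12541 tested genes were higher and 381 lower. DESeq2 had 5 of 46, against 5.1% of all genes it tested. Over all genes in the main edgeR fit, 1 was higher and 9 lower at an adjusted p below 0.05. These became 30 and 25 without a filter, 14 and 19 with DESeq2, 0 and 0 with limma-voom (421 and 383 at an unadjusted p under 0.05), 10 and 12 with the replicate number as a block, 14 and 11 without control 2 and SCFA 2, and 0 to 8 and 0 to 13 with 1 library left out (edgeR). The counts of 0 were without control 1, control 3, SCFA 1, SCFA 2 or SCFA 3 for higher genes and without each SCFA library for lower genes. These fits had 164 to 477 genes higher and 219 to 381 lower at an unadjusted p under 0.05, of 12437 to 12582 tested. The replicate block called no vesicle gene and turned Rab3b to -0.005. The median of the 40 genes, 0.06, stayed within 0.12, the spread between libraries of a group, except with total counts, where it was 0.27. That scaling shifted the all-gene median to 0.18 from 0.01, put 34 of the 40 genes above 0, and turned, among the 24 genes given library by library, Snap25 to 0.12, Snap47 to 0.12, Syn2 to 0.10, Stx7 to 0.051, Stxbp5 to 0.10 and Rab3c to 0.105. Without control 2 and SCFA 2, those of the 24 that turned were Rab3b to -0.20, Rab3c to 0.069 and Doc2a to -0.09. Members outside these 24, such as Sv2a, Syn3, Cplx3 and Stx6, also changed sign in some settings. With 1 library left out, the ranges among the 24 that crossed 0 were -0.14 to 0.003 for Snap25, -0.16 to 0.016 for Snap47, -0.18 to 0.03 for Stxbp5, -0.12 to 0.083 for Rab3c, -0.24 to 0.25 for Rab3b, -0.041 to 0.22 for Syt11, -0.10 to 0.34 for Doc2a and -0.46 to 0.19 for Slc17a6. The causes of these changes were not tested. Among the 40 genes the largest SE were those of Syn1 (0.759) and Syt1 (0.754), with 135 and 213 counts in all.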
